A study of Homo sapiens with 30 samples.

Results

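A375 melanoma cells that stayed above a membrane with 5 µm pores through 10 rounds of migration and were then collected as the ITGB4-negative sort (Top 10 negative) were compared with ITGB4-negative cells of the starting population (Parental negative). The comparison took 6 of the 30 polyA RNA libraries of the series, 3 against 3, chosen by their titles and not by any measured value. A375 is an established human melanoma line. Per the labels, the underside of each membrane carried fibronectin, cells moved from unsupplemented to supplemented medium, and the sort used an antibody to integrin β4 with a cutoff set on unstained cells. Per their titles and characteristics, Top 10 negative cells failed to cross in 10 rounds, and no rounds are given for Parental negative cells. The design text of the series speaks of 5 rounds, and the sample labels were followed. The sources used here do not say how long Parental cells were grown or which of 2 sorters was used for a library, so time in culture and failure to cross cannot be told apart. The same contrast in the ITGB4-positive sort (Top 10 positive against Parental positive) and the ITGB4-negative cells that crossed in 10 rounds (Bottom 10 negative), 3 libraries each, are used where they show how this comparison differs.

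Pores narrower than a nucleus make a cell bend its nucleus to pass, a process called constricted migration, and cells kept above the membrane form the population that did not do so. ITGB4 pairs with ITGA6 to make a laminin receptor that anchors hemidesmosomes through plectin. Desmosomes and hemidesmosomes are best known from epithelial cells such as keratinocytes.

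Few genes passed the threshold, and each of them was lower in cells that had failed to cross. At an adjusted p under 0.05 in edgeR's quasi-likelihood test, 7 of 15381 genes were called (0.0455%), and all 7 were lower in Top 10 negative cells: PGM5, FOXP1, PLCXD3, PKP2, FBXL7, BTBD11 and ANKRD30A. No gene was called higher. At an unadjusted p under 0.05, 110 genes were higher (0.715%) and 619 lower (4.02%), together 4.74%. That total is close to what a threshold of 0.05 passes when no gene differs. The split between higher and lower moved with single libraries, most with Parental negative replicate 1. Without that library it was 700 higher and 753 lower, a share of 48.2% higher against 15.1% with all libraries. The share was 29.7% without Top 10 negative replicate 3, and 8.33% to 15.8% without 1 of the others. With a replicate block in the compared groups alone, the split was 294 higher and 509 lower. DESeq2 called 50 of 15365 genes (0.325%), 1 higher (0.00651%) and 49 lower (0.319%). Libraries of the 2 groups did not overlap for 536 genes higher in Top 10 negative cells (3.48%) and 831 lower (5.4%), together 8.89% of genes. For a gene that does not differ, 3 against 3 libraries separate fully at a rate of 0.1. A lack of overlap, here and below, therefore describes a gene's values and does not by itself set the gene apart. The log2 fold change of all tested genes had a 5th percentile of −1.09 and a 95th percentile of 0.54.

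**Figure D1:**
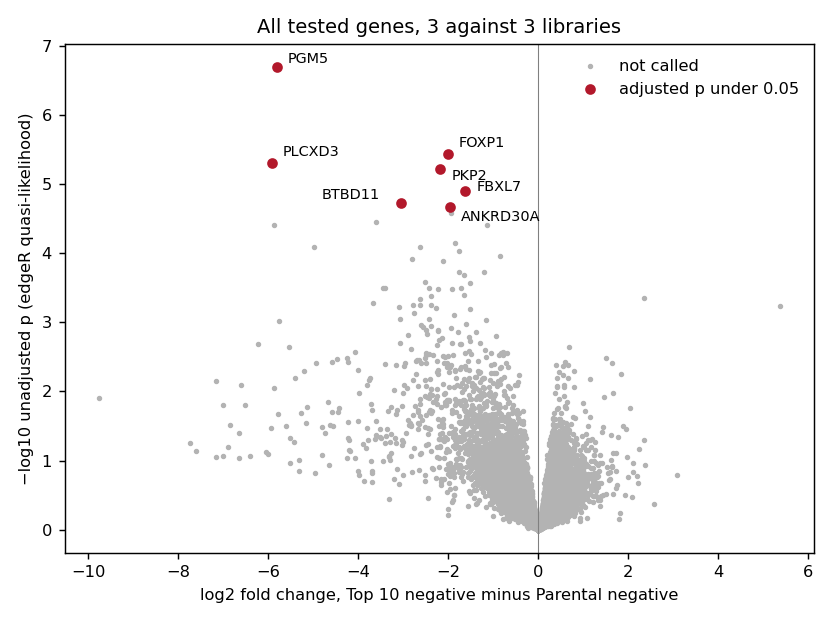
Each point is 1 of the 15381 tested genes, placed by its log2 fold change (Top 10 negative minus Parental negative, x axis) and the −log10 of its unadjusted p (edgeR quasi-likelihood, y axis). Red points are the 7 genes with an adjusted p under 0.05, all of them lower in Top 10 negative cells.

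All called genes moved the same way, so the promoters of 3 of them are shown to let their letters be compared. The set of RefSeq promoters used here held 4 of the 7 (FOXP1, PLCXD3, FBXL7 and BTBD11, the last under its newer symbol ABTB3). Each line below runs 5′ to 3′ over 300 bases around the transcription start in GRCh38.p14, most of them before it, with capitals marking the SP1 letters GGGCGG on either strand. FOXP1 is on chr3:71583679-71583978, minus strand; FBXL7 on chr5:15499930-15500229, plus strand; BTBD11 on chr12:107318184-107318483, plus strand.
FOXP1: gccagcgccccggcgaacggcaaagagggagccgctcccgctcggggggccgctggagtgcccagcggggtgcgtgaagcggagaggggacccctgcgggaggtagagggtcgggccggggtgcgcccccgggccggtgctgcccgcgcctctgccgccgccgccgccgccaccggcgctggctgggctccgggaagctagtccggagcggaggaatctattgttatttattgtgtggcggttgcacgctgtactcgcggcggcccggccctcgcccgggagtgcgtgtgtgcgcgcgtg
FBXL7: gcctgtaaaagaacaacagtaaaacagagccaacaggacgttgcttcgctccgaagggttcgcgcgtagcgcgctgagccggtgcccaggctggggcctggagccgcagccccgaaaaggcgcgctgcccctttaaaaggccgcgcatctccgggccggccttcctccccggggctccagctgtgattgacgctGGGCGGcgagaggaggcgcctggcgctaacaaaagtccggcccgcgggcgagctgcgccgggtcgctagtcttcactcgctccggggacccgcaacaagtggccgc
BTBD11: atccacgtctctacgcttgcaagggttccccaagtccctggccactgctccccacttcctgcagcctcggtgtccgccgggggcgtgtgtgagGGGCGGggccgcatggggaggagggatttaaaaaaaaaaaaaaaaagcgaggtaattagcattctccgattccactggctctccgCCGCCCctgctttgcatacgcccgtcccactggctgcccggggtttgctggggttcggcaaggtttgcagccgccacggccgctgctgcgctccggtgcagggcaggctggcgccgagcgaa
GC content was 75% for FOXP1, 67.7% for FBXL7, 63.7% for BTBD11 and 57.7% for PLCXD3, against a median of 65% over the 12086 promoters matched to tested genes. The CpG dinucleotide occurred 41 times in the FOXP1 window and 14 times in that of PLCXD3, against a median of 26. The SP1 letters were found in 2 of the 4 windows, at −56 relative to the start in FBXL7 and at −157 and −72 in BTBD11, and in 68.1% of all windows. None of the 4 held the AP-1 letters TGANTCA (4.77% of all windows), CRE TGACGTCA (3.14%), TEAD GGAATG (11.1%), the E-box CACGTG (9.86%) or the forkhead letters TGTTTAC (2.26%), read on both strands. No motif was thus shared by the 4 windows. A match is only a run of letters, and its absence covers this window alone.

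The groups differed without overlap in depth and in reads assigned to no gene. Gene counts were 19800700 to 23867600 in Top 10 negative libraries and 16403600 to 18007400 in Parental negative libraries, and 22.6 to 22.7% against 25.8 to 26.5% of reads were assigned to no gene. That share was 24.1 to 26.1% in Parental positive libraries and 22.1 to 23.6% in the other libraries of 10 rounds. What part this difference had in the results was not tested. Library differences within the groups were also large. On the first principal component (32.4% of the variance of the 30 libraries), Top 10 negative replicates 1, 2 and 3 had scores of −51.3, −81.4 and −7.83, and Parental negative replicates 1, 2 and 3 had −77.9, 3.60 and 23.6. Parental negative replicate 1 thus lay beside Top 10 negative replicate 2 and away from its own group. Its log correlation with the other Parental negative libraries was 0.962 and 0.938, against 0.983 between these. Top 10 negative replicate 1 had a score of 45.0 on the second component (21.2%), where the other 5 libraries lay below 0, down to −21.4. Values with and without both libraries follow below. Where the labels call libraries biological replicates but name no separate sorts or cultures, p-values rest on the spread between libraries of a group. In the main fit that spread was estimated over all 10 groups, not over these 6 libraries alone. In bulk RNA, fewer cells of a state and less RNA per cell cannot be told apart.

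**Figure D2:**
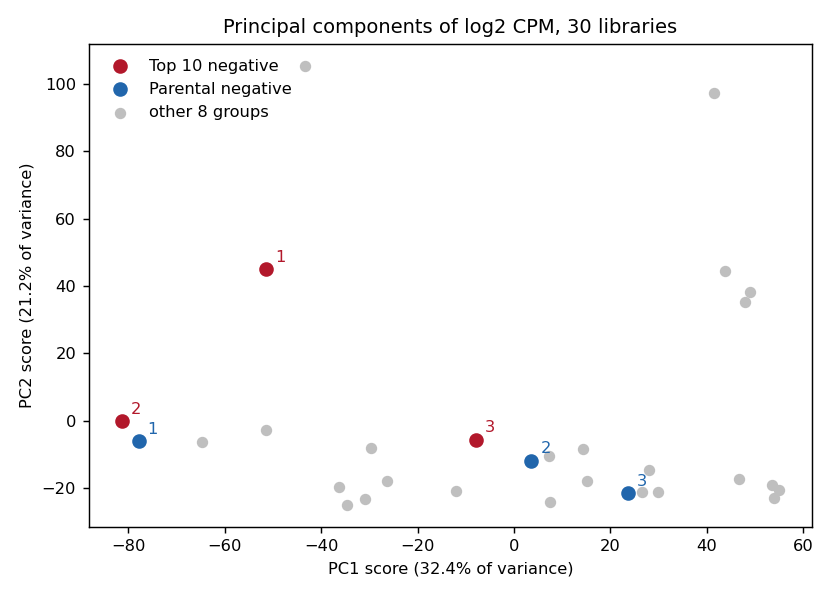
Scores of the 30 libraries on the first (x axis) and second (y axis) principal components of log2 CPM, with the share of variance in each axis label. Numbers are replicates of Top 10 negative (red) and Parental negative (blue). Parental replicate 1 (−77.9) sits beside Top 10 replicate 2 (−81.4) on the first component.

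Melanoma markers were present in both groups: the 8 genes summed to 1172 to 1786 CPM in Top 10 negative libraries and 683 to 1694 CPM in Parental negative libraries, carried by SOX10, while the pigment genes PMEL and MLANA had means under 1 CPM in both groups. The 9 fibroblast markers summed to 22.9 to 34.1 CPM against 36.0 to 48.2 CPM, and the 8 endothelial markers to 5.81 to 8.91 CPM against 10.29 to 11.04 CPM, so both sums were lower in each Top 10 negative library. The 9 leukocyte markers gave 28.8 to 77.8 CPM against 42.7 to 80.3 CPM, and the 8 keratinocyte markers 83.2 to 114 CPM against 69.6 to 118 CPM. None of these marker genes was called. What part other cells had in the results was not tested.

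ITGB4, the gene behind the sort, had 118, 293 and 73 raw counts in the 3 Top 10 negative libraries against 420, 637 and 446 in the 3 Parental negative libraries. In TMM-scaled counts scaled to a common depth (CPM), the level averaged 7.38 ± 5.17 in Top 10 negative cells and 27.8 ± 5.13 in Parental negative cells (SD, n = 3 each). Every Top 10 negative library was below every Parental negative one, although both groups were sorted as negative. The log2 fold change was −1.91 ± 0.88 (SE), with an unadjusted p of 0.0406 and an adjusted p of 0.998 in edgeR's test, so ITGB4 was not called. The transcript was detected in all 6 negative-sort libraries.

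PGM5 showed the lowest adjusted p. Its product, aciculin, is a relative of phosphoglucomutase that sits at adherens junctions and binds dystrophin and utrophin. Top 10 negative libraries held 1, 0 and 1 raw counts, or 0.0434, 0 and 0.0509 CPM, and Parental negative libraries held 24, 45 and 43 raw counts, or 1.403, 2.38 and 2.42 CPM. PGM5 was therefore close to absent in Top 10 negative cells, and the groups did not overlap. Over the pooled counts, 2 against 112, the Parental level was 67.4 times the Top 10 level, with a 95% exact counting interval of 18.2 to 564 that covers counting error only. The fitted log2 fold change was −5.80 ± 0.81 (edgeR, adjusted p = 0.00313). Of its 7416 stretches of 50 bases, 9.14% also occur in its copies, mostly PGM5P2, and the strand setting of the counting is not given, so reads of PGM5 and of PGM5-AS1 cannot be told apart. The pseudogene PGM5P2 had 0.130, 0.181 and 0.356 CPM in Top 10 negative libraries against 1.05, 1.59 and 3.10 CPM in Parental negative libraries (log2 fold change −3.09 ± 0.78; edgeR adjusted p = 0.236).

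PLCXD3, a phospholipase C-like protein with the X domain of that family, had 0 counts in all 3 Top 10 negative libraries against 4, 7 and 9 raw counts, or 0.234, 0.370 and 0.507 CPM, in Parental negative libraries. With a floor of 3 counts over the Top 10 negative group, PLCXD3 was at least 8.03-fold lower there (edgeR adjusted p = 0.0236). The gene rested on 20 counts in all, and its Parental level was low. BTBD11, an ankyrin-repeat protein with a BTB domain, had 0.0867, 0.0454 and 0.153 CPM in Top 10 negative libraries, from 2, 1 and 3 raw counts. In Parental negative libraries it had 0.292, 0.899 and 1.24 CPM, from 5, 17 and 22 raw counts. The groups did not overlap, and Parental replicate 1 was the lowest of its group. The log2 fold change was −3.04 ± 0.57 (edgeR adjusted p = 0.0472), and the pooled ratio of Parental to Top 10 negative level was 8.83 with an exact 95% counting interval of 3.75 to 25.4.

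PKP2 encodes plakophilin 2, an armadillo-repeat protein of the desmosomal plaque. It had 1.13, 0.998 and 1.63 CPM in Top 10 negative libraries against 3.86, 4.87 and 8.22 CPM in Parental negative libraries. The highest Top 10 value was below the lowest Parental one, and the log2 fold change was −2.17 ± 0.38 (edgeR adjusted p = 0.0236). FOXP1, a forkhead transcription factor that mostly represses its targets, had 1.13, 0.953 and 1.27 CPM against 5.73, 3.44 and 4.45 CPM in the same order of groups. The Top 10 negative values lay close together, and the log2 fold change was −2.02 ± 0.34 (edgeR adjusted p = 0.0236).

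FBXL7, a substrate adapter of SCF ubiquitin ligases, had 1.52, 1.68 and 1.83 CPM in Top 10 negative libraries against 5.20, 5.98 and 4.28 CPM in Parental negative libraries. It averaged 1.68 ± 0.16 and 5.15 ± 0.85 CPM (SD, n = 3 each), and the log2 fold change was −1.62 ± 0.30 (edgeR adjusted p = 0.0391). ANKRD30A, known as the breast differentiation antigen NY-BR-1, had 0.694, 0.726 and 0.560 CPM against 1.29, 2.96 and 3.49 CPM. Its Parental replicate 1 was again the lowest of that group, and the log2 fold change was −1.96 ± 0.37 (edgeR adjusted p = 0.0472).

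How firmly the 7 calls stood depended on single libraries. With each of the 6 libraries left out in turn, PGM5 was called in 4 of 6 fits (adjusted p 0.00417 to 0.0609), FOXP1, PLCXD3 and PKP2 in 2, and FBXL7, BTBD11 and ANKRD30A in 1, always the fit without Parental replicate 1. All 7 kept a negative log2 fold change in every fit that could be made, with a range of −2.18 to −1.81 for FOXP1 and −1.74 to −1.50 for FBXL7. Leaving out Top 10 negative replicate 1, 2 or 3 gave 0, 0 or 1 called genes. Leaving out Parental negative replicate 1, 2 or 3 gave 26, 6 or 1. It was 0 when only these 6 libraries were fitted, which leaves the spread to be estimated from them alone. It was also 0 without the 6 libraries of the series that scored above 30 on the second component, Top 10 negative replicate 1 among them.

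**Figure D3:**
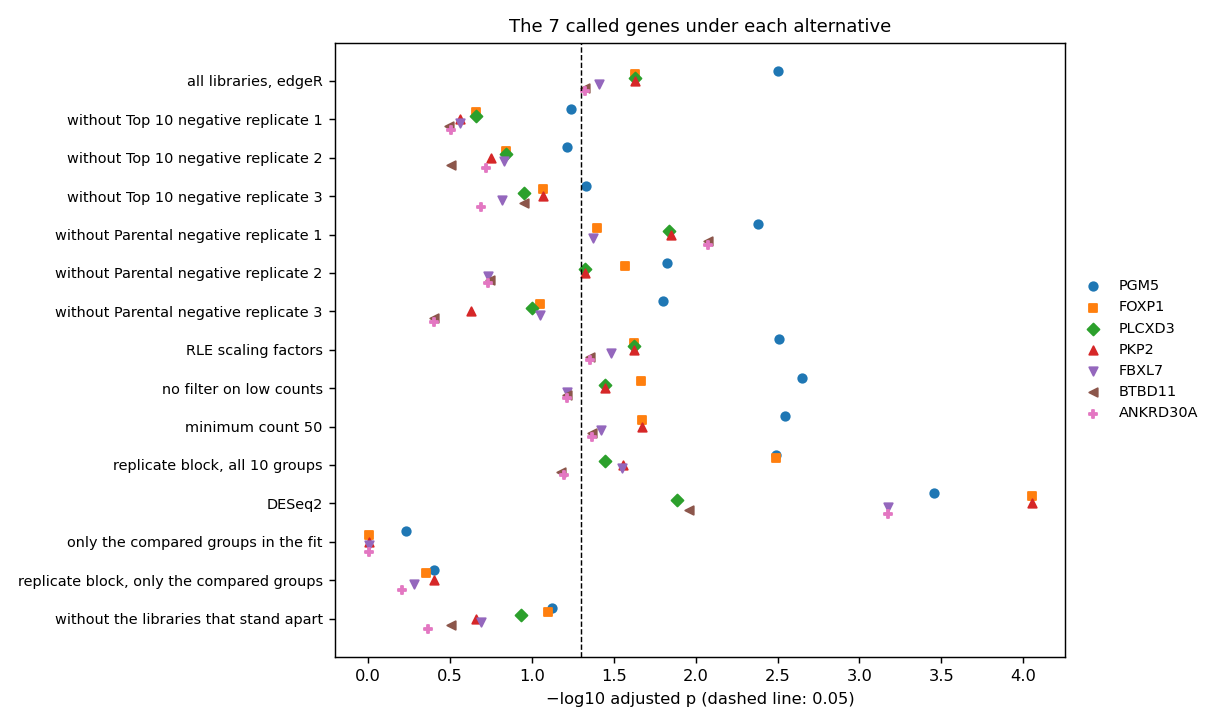
Rows are the fit of all 30 libraries with edgeR and the 14 alternatives, and each marker is 1 of the 7 genes at the −log10 of its adjusted p (x axis). Markers right of the dashed line are past 0.05. PGM5 lies right of it in 9 of the 14 alternatives, and the fits of the compared groups alone place no gene there. A gene filtered out of a fit has no marker.

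Across the series, the 7 genes had their lowest group mean of all 10 groups in Top 10 negative cells. For PGM5, FOXP1, PKP2, FBXL7 and BTBD11, all 27 other libraries lay above the highest Top 10 negative library, and for ANKRD30A and PLCXD3 26 and 25 of the 27 did. The 7 genes were picked for low values in these Top 10 negative libraries, and the 27 include the Parental negative ones. Their rank is thus partly fixed by that choice and is given as a description only. The same contrast in the ITGB4-positive sort, which shares no library with this one, called 59 genes (0.384%), 9 higher (0.0585%) and 50 lower (0.325%), and 6 of the 7 were among those lower in Top 10 positive cells. PGM5 averaged 0.301 CPM in Top 10 positive and 13.6 CPM in Parental positive cells, and fell there by a log2 value of −5.47 ± 0.61 (adjusted p = 1.7e-05 in edgeR). ANKRD30A averaged 0.751 and 10.2 CPM (−3.75 ± 0.38; edgeR adjusted p = 5.28e-06). BTBD11 averaged 1.18 and 3.02 CPM and was not called there (−1.35 ± 0.42 on the log2 scale; adjusted p = 0.212 in edgeR).

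The difference between the sorts was tested as an interaction, the change in the negative sort minus that in the positive sort. edgeR called 0 of 15381 genes, with 126 at an unadjusted p under 0.05 (0.819%), and DESeq2 called 1 (0.00651%), MAGEA1. The interaction had an adjusted p of 1 for each of the 7 genes. Its log2 value was 1.79 ± 0.52 for ANKRD30A (unadjusted p = 0.00194), 1.09 ± 0.46 for FOXP1 (unadjusted p = 0.0265) and −1.69 ± 0.71 for BTBD11 (unadjusted p = 0.0249), so the fall in the negative sort was smaller in size for the first 2 and larger for BTBD11, without passing the threshold. Parental negative cells had lower means than Parental positive cells for all 7 genes, for example 5.15 against 20.7 CPM for FBXL7.

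Cells that crossed differed from those that did not. Against Bottom 10 negative cells, Top 10 negative cells had 205 called genes (1.33%), 59 higher (0.384%) and 146 lower (0.949%), and 6 of the 7 genes were among those lower. Replicate numbers paired these groups, and with a replicate block in the 4 groups taken through 10 rounds the count was 1355. With 1 library left out it was 91 to 157, lowest without Bottom 10 negative replicate 2 (91) and next without Top 10 negative replicate 1 (96) and replicate 2 (107). FBXL7 averaged 1.68 CPM in Top 10 negative cells and 15.7 CPM in Bottom 10 negative cells (log2 fold change −3.22 ± 0.30; edgeR adjusted p = 1.12e-06). ANKRD30A averaged 0.660 against 1.18 CPM and was not called (−0.83 ± 0.37; edgeR adjusted p = 0.480). Bottom 10 negative cells, set against the same Parental negative libraries, had 50 called genes (0.325%), 21 higher (0.137%) and 29 lower (0.189%). FOXP1, FBXL7 and BTBD11 were higher there than in Parental negative cells, with log2 fold changes of 1.59 ± 0.31, 1.60 ± 0.28 and 2.59 ± 0.44 (edgeR adjusted p = 0.0196, 0.00974 and 0.0074). These comparisons share libraries with the one described and are given side by side only.

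**Figure D4:**
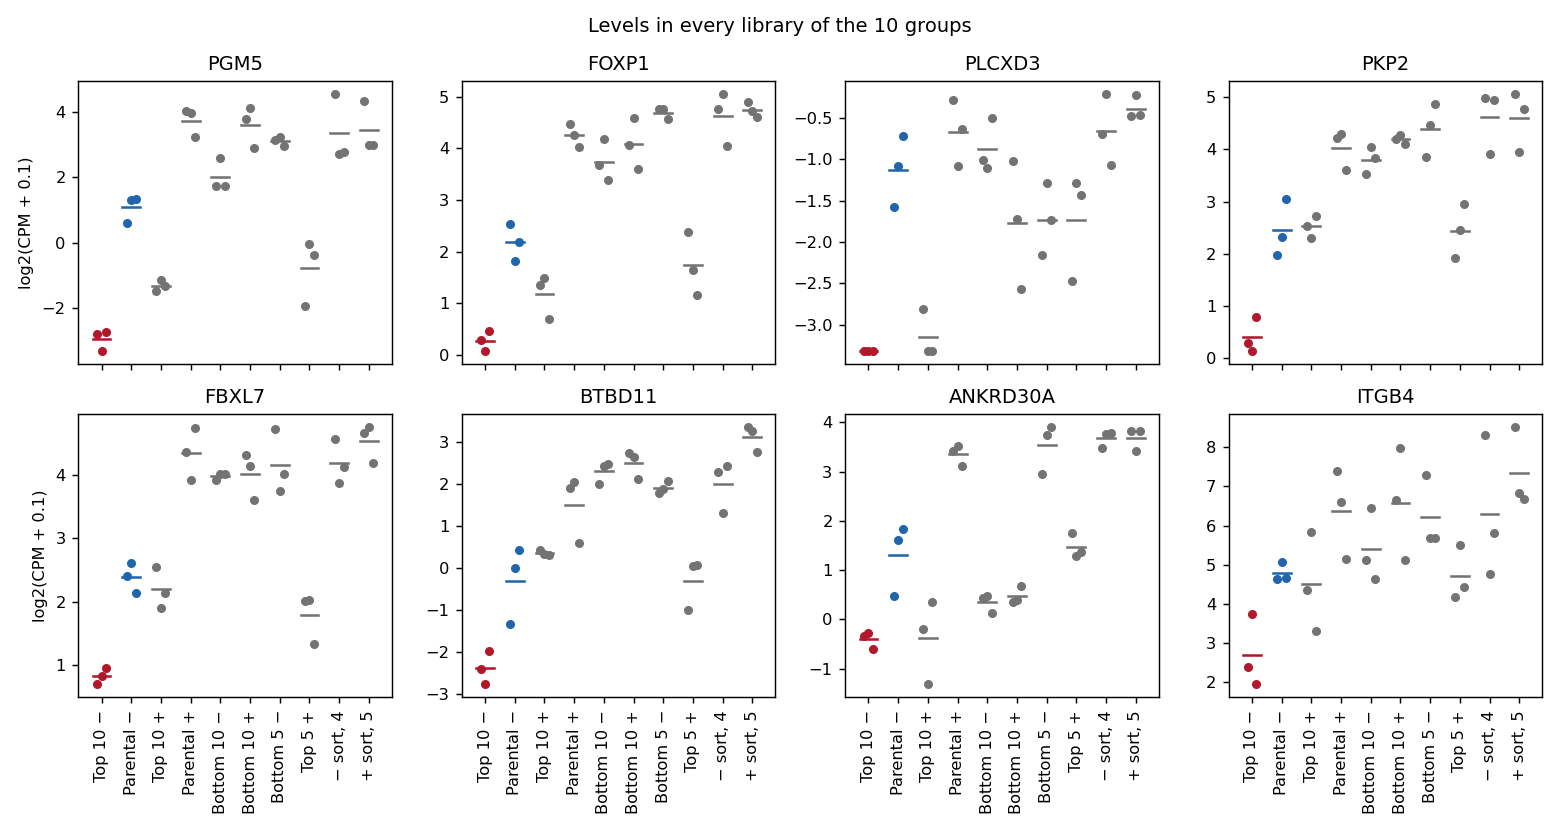
The 7 called genes and ITGB4 in all 30 libraries on a log2(CPM + 0.1) scale (y axes), by group (x axis: − and + give the sort, Top and Bottom the side of the membrane, numbers the rounds), with dots for libraries and lines for group means. Top 10 negative (red) has the lowest mean in every panel of the 7 genes and lies below Parental negative (blue), the comparison by which these genes were picked.

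The genes just outside the threshold were named after their values were seen. PXDN, peroxidasin, which cross-links collagen IV in basement membranes, had 2.12, 4.13 and 2.09 CPM in Top 10 negative libraries against 12.3, 11.2 and 8.45 CPM in Parental negative libraries (log2 fold change −1.93 ± 0.37; edgeR adjusted p = 0.0509). POSTN, the matricellular protein periostin, had 0.130, 0.181 and 0 CPM against 1.23, 1.59 and 1.30 CPM (−3.61 ± 0.71; edgeR adjusted p = 0.0545). Both sets of libraries were fully apart. SLCO1B3, an organic anion transporter of hepatocytes, had 0 counts in all Top 10 negative libraries and 19 in the Parental negative ones, at least 7.63-fold lower against the floor of 3 counts over the group (edgeR adjusted p = 0.0545). The GATA cofactor ZFPM2 had 3.60, 4.13 and 3.16 CPM against 7.31, 7.83 and 9.06 CPM (−1.15 ± 0.23; edgeR adjusted p = 0.0545). CD163L1, a scavenger receptor, UCA1, a long noncoding RNA, and S1PR1, a receptor for sphingosine 1-phosphate, followed at an edgeR adjusted p of 0.0893. DESeq2 called each gene named in this paragraph, with its adjusted p running from 6.35e-05 (UCA1) to 0.0154 (CD163L1). UCA1 averaged 0.687 ± 0.70 CPM in Top 10 negative and 21.2 ± 15.9 CPM in Parental negative cells (SD, n = 3 each). Within Parental negative cells its level was 3.57 CPM in replicate 1 against 25.7 and 34.4 CPM in replicates 2 and 3.

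More genes were called when 1 library was left out. Without Parental negative replicate 1, edgeR called 26 genes, all lower in Top 10 negative cells: the 7 and 19 more. DESeq2 on all libraries called 18 of the 19. These genes were named after their values had been seen, and leaving out that library favours genes in which it was the lowest Parental one, as it was in all 19. Secreted ligands among them were VEGFC, a lymphangiogenic growth factor, NRG1, which binds ERBB3 and ERBB4, BDNF, a neurotrophin, and ESM1, endocan. VEGFC had 4.42, 4.67 and 6.77 CPM in Top 10 negative libraries against 7.07, 34.7 and 32.1 CPM in Parental negative libraries. With all libraries its log2 fold change was −2.22 ± 0.53 (edgeR adjusted p = 0.178), and without Parental replicate 1 it was −2.66 ± 0.49 (edgeR adjusted p = 0.0226). NRG1 had 1.13, 0.681 and 1.32 CPM against 1.29, 7.30 and 10.9 CPM, so that Parental replicate 1 overlapped the Top 10 negative range. Its log2 fold change was −2.63 ± 0.66 with all libraries (edgeR adjusted p = 0.233).

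Cell-surface, matrix and cytoskeletal genes in that set were L1CAM, a neural adhesion molecule, COL13A1, a transmembrane collagen, S1PR1, POSTN, ARHGAP29, a GTPase-activating protein, and LMO7, an actin-linked junction protein. L1CAM averaged 29.4 ± 13.2 CPM in Top 10 negative and 142 ± 82.9 CPM in Parental negative cells (SD, n = 3 each), with Parental values of 46.6, 182 and 197 CPM. LMO7 had 18.2, 25.6 and 19.7 CPM in Top 10 negative libraries against 34.3, 48.2 and 63.0 CPM in Parental negative libraries (log2 fold change −1.20 ± 0.27; edgeR adjusted p = 0.144), with no overlap. Transcription factors were FLI1, of the ETS family, and PRDM1, a zinc finger repressor. FLI1 had 1.43, 2.36 and 3.87 CPM against 2.86, 12.2 and 13.9 CPM, with an overlap through Parental replicate 1. The remainder were UCA1, ZFPM2, MLPH, which links melanosomes to myosin Va, ELFN2, SLC35F3, EVA1A and PRR16.

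DESeq2 called 43 genes that edgeR did not. Lower ones outside the sets above included SOX9, a neural crest transcription factor, IL7R, the receptor for interleukin 7, PTX3, a pentraxin, PDGFB, a growth factor, MME, a surface peptidase, SERPINB7, a serpin, and PLK2, a kinase induced by p53. PDGFB had 0.173, 0.272 and 0.255 CPM in Top 10 negative libraries against 1.29, 1.53 and 2.20 CPM in Parental negative libraries (log2 fold change −2.81 ± 0.61; edgeR adjusted p = 0.111, DESeq2 adjusted p = 0.00733). PLK2 had 22.2, 33.0 and 47.1 CPM against 55.9, 98.8 and 139 CPM (−1.52 ± 0.39; edgeR adjusted p = 0.244). Both were apart between the groups.

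No gene was called higher by edgeR, and the only one by DESeq2 was CTAG2, a cancer-testis antigen of the X chromosome. CTAG2 had 1.43, 1.45 and 0.866 CPM in Top 10 negative libraries against 0.175, 0.212 and 0.338 CPM in Parental negative libraries (log2 fold change 2.34 ± 0.58; edgeR adjusted p = 0.212, DESeq2 adjusted p = 0.0392). Its level is uncertain, since 43.1% of its stretches of 50 bases also occur in CTAG1A and CTAG1B. FAM124B had 16 counts in Top 10 negative libraries and 0 in Parental negative ones, at least 4.43-fold higher against the floor of 3 counts over the group (edgeR adjusted p = 0.233).

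Other genes that stood higher in every Top 10 negative library were named after their values were seen. GNAS, which encodes the stimulatory G protein α subunit, averaged 4713 ± 1132 CPM in Top 10 negative and 2705 ± 916 CPM in Parental negative cells (SD, n = 3 each; log2 fold change 0.80 ± 0.26; edgeR adjusted p = 0.559). CAPG, an actin-capping protein, had 154, 134 and 107 CPM against 87.8, 88.6 and 71.3 CPM (0.67 ± 0.20; edgeR adjusted p = 0.479). The ferritin receptor SCARA5 had 31.4, 31.1 and 38.1 CPM against 18.6, 17.3 and 9.68 CPM (1.14 ± 0.47; edgeR adjusted p = 0.923). TIMP1, an inhibitor of matrix metalloproteases, had 509, 298 and 285 CPM against 237, 181 and 144 CPM (0.96 ± 0.45; edgeR adjusted p = 0.998). PCDH15, a protocadherin, had 2.99, 3.31 and 2.19 CPM against 0.935, 0.635 and 0.788 CPM (1.84 ± 0.61; edgeR adjusted p = 0.576). For TIMP1, Top 10 negative replicate 1 was the highest of its group by a wide margin.

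Gene lists were described by their members' counts and medians beside those of all tested genes, of which 50.4% had a log2 fold change above 0. The lists were drawn up with earlier results of these data known, so their values are descriptions only. Over the lists, 2 genes were called by edgeR, PKP2 and ANKRD30A. In the sorted integrin and hemidesmosome list, 2 of 9 members had values above 0, the median log2 fold change was −0.49 (the value of PLEC), and 0 were called. Per library, the median less each gene's Parental mean was −0.49, −0.47 and 0.07 in Top 10 negative and −0.21, 0.09 and 0.11 in Parental negative libraries. Top 10 replicate 3 was thus at the Parental level. PLEC, plectin, averaged 1021 ± 448 CPM in Top 10 negative and 1432 ± 322 CPM in Parental negative cells (SD, n = 3 each), with overlapping libraries. ITGA6, the partner of ITGB4, averaged 328 ± 93.9 CPM and 328 ± 59.5 CPM (log2 fold change −0.0019 ± 0.27). Keratin, desmosome and epithelial genes had 5 of 31 values above 0 and a median of −0.33. PKP2 was the only one of them called.

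No matrix gene was called by edgeR. DESeq2 called PXDN of the basement membrane list (adjusted p = 0.00048), and POSTN (0.00266) and COL13A1 (0.0185) of the interstitial list, all lower. Of 30 interstitial matrix genes, 13 had values above 0 (43.3%, beside 50.4% of all genes), and the median log2 fold change was −0.26. Libraries did not overlap for 8 lower and 1 higher of them, where 5.4% of all genes were lower and 3.48% higher without overlap. COL1A1, a chain of collagen I, had 2.34, 2.63 and 1.63 CPM in Top 10 negative libraries against 3.80, 9.47 and 8.50 CPM in Parental negative libraries (−1.72 ± 0.66; edgeR adjusted p = 0.805). FN1, fibronectin, had 91.3, 172 and 54.7 CPM against 275, 191 and 206 CPM (−1.08 ± 0.81; edgeR adjusted p = 0.998). THBS1, thrombospondin 1, had 143, 136 and 759 CPM against 201, 887 and 1565 CPM, with 1 high library in Top 10 negative and 1 low one in Parental negative cells. Of 21 basement membrane genes, 7 had values above 0 and 4 were lower without overlap (5.4% of all genes), among them PXDN and LAMA1, a laminin chain (−1.37 ± 0.50; edgeR adjusted p = 0.729), and the median was −0.13. SPARC, which binds collagen, averaged 1639 ± 272 CPM in Top 10 negative and 1356 ± 245 CPM in Parental negative cells (SD, n = 3 each).

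Matrix proteases and inhibitors had a median of −0.29 over 30 genes. MMP1, interstitial collagenase, had 0.564, 0.862 and 1.12 CPM in Top 10 negative libraries against 2.34, 8.52 and 5.69 CPM in Parental negative libraries (log2 fold change −2.70 ± 0.83; edgeR adjusted p = 0.524). TIMP3, another inhibitor, averaged 1191 ± 124 CPM and 1038 ± 40.3 CPM in the same order (SD, n = 3 each; 0.20 ± 0.39). Among 14 cell surface peptidases, 3 had values above 0 and the median was −0.29. ANPEP, aminopeptidase N, had 101, 98.7 and 107 CPM against 111, 187 and 190 CPM (−0.67 ± 0.33; edgeR adjusted p = 0.998). Its Top 10 negative libraries were below all Parental ones, though only just below replicate 1.

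Among signalling lists, the lowest medians were those of YAP and TEAD targets, of semaphorins, plexins and slits, and of ERBB receptors and ligands. In that order, the median log2 fold changes were −0.46 (27 genes, 6 above 0), −0.46 (33, 7 above 0) and −0.52 (14, 2 above 0). Eph receptors and ephrins (−0.22), growth factors and angiogenic ligands (−0.19) and TGF-beta ligands and targets (−0.10) also had medians below that of all genes. So did the Notch (−0.06) and WNT (−0.004) lists. No member of these lists was called by edgeR. YAP and TEAD drive genes in response to matrix stiffness and spreading, and 8 of the 27 targets were lower at an unadjusted p under 0.05, beside 4.02% of all genes. NUAK2, a kinase, had 2.95, 2.54 and 4.38 CPM in Top 10 negative libraries against 4.74, 8.84 and 9.52 CPM in Parental negative libraries (−1.23 ± 0.41; edgeR adjusted p = 0.604). The matricellular targets CTGF and CYR61 showed the within-group difference. CTGF had 12.5, 10.3 and 42.2 CPM against 10.6, 65.0 and 91.6 CPM, and Parental replicate 1 matched the low Top 10 libraries. Per library, the median of the 27 targets less each gene's Parental mean was −0.82, −0.34 and −0.14 in Top 10 negative and −0.20, −0.00 and 0.30 in Parental negative libraries. For ERBB receptors and ligands these medians were −0.11, −0.06 and −0.30 against −0.03, 0.01 and −0.01. Each was smaller in size than the fitted median of −0.52. SEMA3F, a secreted semaphorin, had 6.76, 8.39 and 6.57 CPM in Top 10 negative libraries against 10.2, 17.2 and 17.8 CPM in Parental negative libraries (−1.06 ± 0.44; edgeR adjusted p = 0.932).

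**Figure D5:**
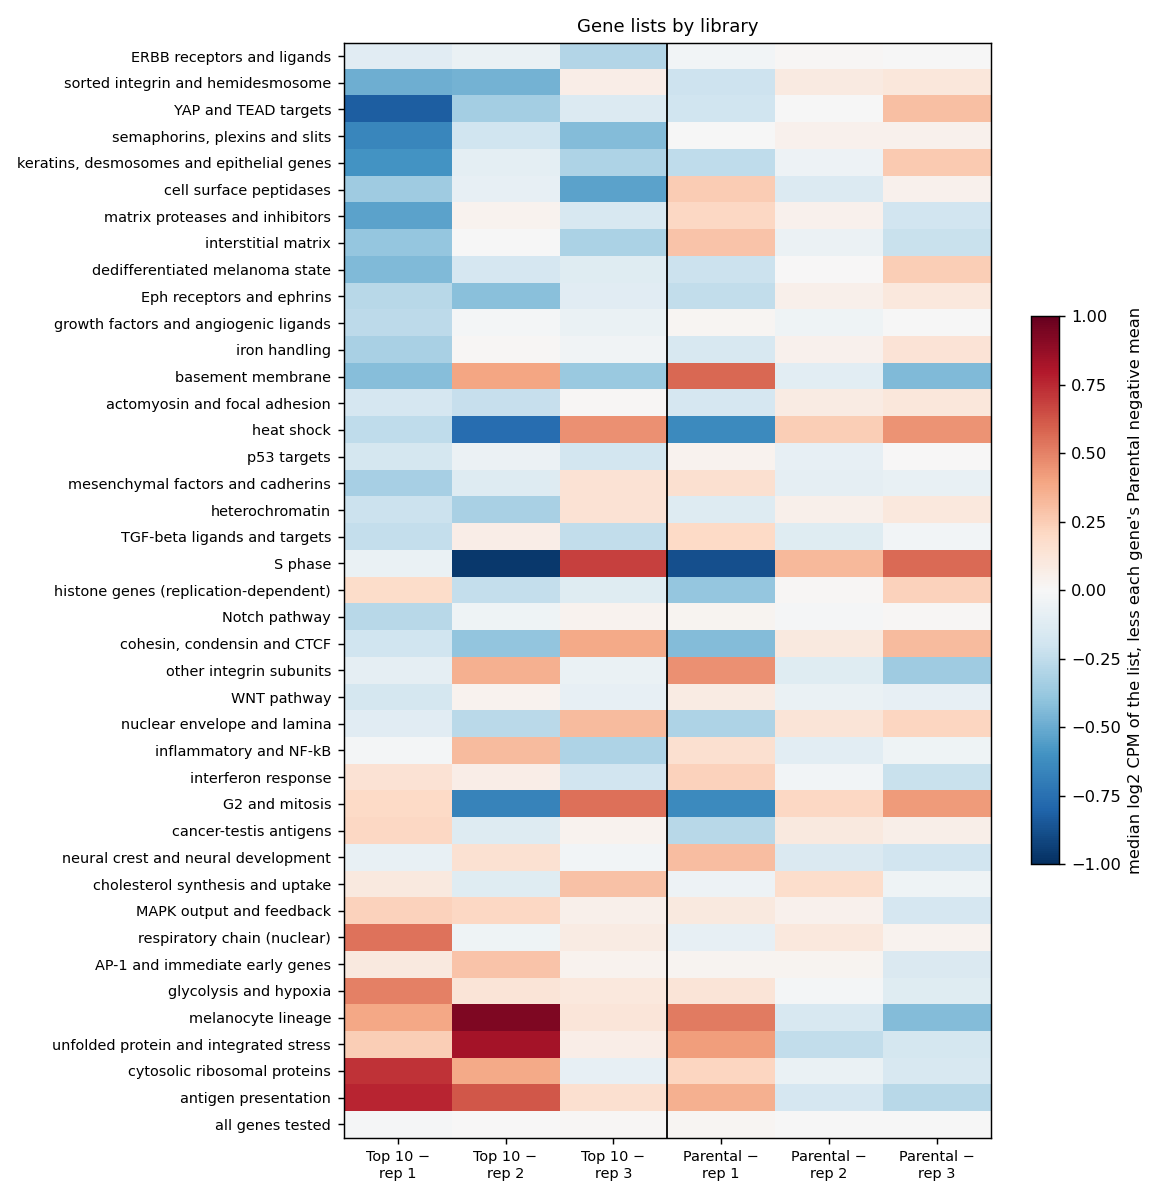
Rows are gene lists ordered by their median log2 fold change, with all genes tested at the bottom, and columns are the 3 Top 10 negative and 3 Parental negative libraries. Colour is the median log2 CPM of a list in a library after each gene's Parental negative mean is taken off, with red above and blue below it. Parental replicate 1 and Top 10 replicate 2 share the low S phase values (−0.88 and −0.97).

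No gene of pigment cell state was called by edgeR, while DESeq2 called 3 dedifferentiated state genes lower. Melanocyte lineage genes had a median log2 fold change of 0.27 over 19 genes and dedifferentiated state genes one of −0.24 over 29. In either list, 0 were called by edgeR. SOX10, the lineage transcription factor, had 1118, 1460 and 981 CPM in Top 10 negative libraries against 1369, 764 and 594 CPM in Parental negative libraries, with overlap through Parental replicate 1. S100A1, a calcium-binding protein, had 320, 195 and 87.5 CPM against 198, 49.6 and 21.7 CPM. AXL, a receptor tyrosine kinase of the dedifferentiated state, averaged 272 ± 94.96 CPM and 333 ± 63.5 CPM, and SOX9 averaged 0.421 ± 0.37 CPM and 2.90 ± 2.43 CPM (SD, n = 3 each). Without Parental replicate 1, the melanocyte lineage median was 0.81.

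Several lists had a median above that of all genes, with 0 members called in each of those described here. Of 26 antigen presentation genes, 23 had values above 0 and the median log2 fold change was 0.41, with 0 called. CD74, the invariant chain, had 2665, 3051 and 1848 CPM in Top 10 negative libraries against 2324, 1053 and 937 CPM in Parental negative libraries (0.81 ± 0.49; edgeR adjusted p = 0.998). All 62 cytosolic ribosomal protein genes were above 0, with a median of 0.36 and 0 called. Their per-library median was 0.72, 0.38 and −0.08 in Top 10 negative libraries, so replicate 1 led and replicate 3 was at the Parental level. RPS2 had 4274, 3303 and 2376 CPM against 3006, 2541 and 2374 CPM. Respiratory chain genes (38 of 39 above 0, median 0.21), glycolysis and hypoxia genes (28 of 33, 0.26) and unfolded protein genes (27 of 31, 0.35) also had medians above 0, as did AP-1 and immediate early genes (16 of 24, 0.25). In Top 10 negative replicate 1, the respiratory chain median was 0.54, against −0.04 and 0.08 in replicates 2 and 3. The unfolded protein median was 0.24, 0.83 and 0.07 in Top 10 negative and 0.42, −0.24 and −0.18 in Parental negative libraries. Parental replicate 1 thus lay above Top 10 replicates 1 and 3.

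No cell cycle gene was called, and these genes varied widely within both groups. The S phase median per library was −0.07, −0.97 and 0.69 in Top 10 negative and −0.88, 0.32 and 0.57 in Parental negative libraries, and its log2 fold change had a median of −0.10 over 43 genes. For G2 and mitosis genes the values were 0.20, −0.66 and 0.55 against −0.64, 0.21 and 0.43, with a median log2 fold change of 0.04 over 43 genes. MCM4, a subunit of the replicative helicase, had 229, 109 and 405 CPM in Top 10 negative libraries against 119, 337 and 396 CPM in Parental negative libraries. TOP2A, topoisomerase II α, had 462, 350 and 575 CPM against 313, 446 and 489 CPM. Top 10 replicate 2 and Parental replicate 1 were the low libraries for both genes. The part of this difference in the results above was not tested.

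Among cancer-testis antigens, 1 of 24 members, ANKRD30A, fell (0.0455% of all genes), and the median log2 fold change was 0.07. No chromosome stood apart as a whole. The median log2 fold change per chromosome, less that of all genes, lay between −0.041 (X) and 0.045 (6), over 98.1% of tested genes placed by symbol. The 7 called genes were on chromosomes 3, 5, 9, 10 and 12, with 2 each on 5 and 12.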

How the data were processed

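The members are the 3 Top 10 negative and 3 Parental negative libraries, taken by their titles. Earlier results of these data were known when the members and gene lists were chosen. The authors deposited raw read counts per gene symbol. The submitters' processing notes name STAR, HTSeq, DESeq and the build hg19; versions, strand setting and annotation are not given in the sources used here. Rows that name no gene (22.6 to 26.5% of reads in these libraries) were left out. The files listed 26364 genes. The edgeR filter (minimum count 10, minimum total 15) kept 15381. Counts were scaled by TMM and fitted with edgeR 4.0.16 (quasi-likelihood, R 4.3.3), all 10 groups in 1 fit, p-values adjusted by Benjamini-Hochberg across every tested gene, threshold 0.05. The SE is the log2 fold change over the square root of F. Rose, fell and called refer to that threshold. An exact permutation test of 3 against 3 cannot go below 0.1 and was not used. Log levels used a prior count of 2. Alternatives were DESeq2 1.42.0, RLE factors, other filters, a replicate block, fewer groups and each library left out; a fit without the libraries with a second-component score above 30 was chosen after seeing the data. The text names ITGB4, every called gene (fewer than 30 were called) and the most abundant members of lists; others are said to be named after their values were seen, and so were the genes just outside the threshold and the further list examples with low p-values. Promoters came from RefSeq (GRCh38.p14), matched for 11262 genes by symbol and 824 by an older one, and 3295 were unmatched. On simulated counts for this comparison (15244 genes), 18 of 100 genes made to differ 2-fold were called, and 80 of 100 made to differ 4-fold, with 0 in the wrong direction and 4 false among 102 calls. The simulated counts were drawn for each gene on its own. They lacked differences that many genes of a library share, as on the first component, so these rates may not hold for the real libraries. Intervals and floors cover counting error only.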

Additional observations from a re-analysis of the deposited data

Results flagged for a closer look

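The change between Top 10 and Parental cells differed between the sorts for 1 gene by DESeq2's test of the interaction, MAGEA1, a cancer-testis antigen. MAGEA1 averaged 11.02 ± 2.78 CPM in Top 10 negative and 15.9 ± 5.66 CPM in Parental negative cells, against 4.06 ± 0.36 CPM in Top 10 positive and 33.9 ± 9.43 CPM in Parental positive cells (SD, n = 3 each). The interaction was 2.53 on the log2 scale (DESeq2 adjusted p = 0.0110; edgeR 2.53 ± 0.49, adjusted p = 0.456), so edgeR did not call it.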

How the results depend on the processing

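For Top 10 negative against Parental negative, the count of 7 called genes became 4 with no filter on low counts, 50 with DESeq2, 0 with only the compared groups in the fit, 0 without the libraries that stand apart, and 0 to 26 with 1 library left out. RLE factors gave 8 and a minimum count of 50 gave 8. Replicate numbers did not pair these groups (correlations 0.20, −0.45 and 0.59, the same number correlating best in 2 of 3): the replicate block gave 7 calls over all groups, 5 of them shared, and 0 in the compared groups. The interaction count of 0 became 1 with DESeq2 and 1 without the libraries that stand apart (VCX2). Top 10 negative against Bottom 10 negative, whose numbers paired (0.41, 0.63 and 0.69), had 205 calls, 394 with DESeq2, 1355 with the replicate block in the 4 groups taken through 10 rounds, and 91 to 157 with a library left out. Top 10 positive against Parental positive had 59 calls, 98 with the replicate block, 215 with DESeq2, 13 with only the compared groups, 108 without the libraries that stand apart, and 20 to 101 with a library left out. Bottom 10 negative against Parental negative had 50, 33 with no filter, 174 with DESeq2, 0 with only the compared groups, 111 without the libraries that stand apart, and 5 to 39 with a library left out. Called list members were 2, and 1 with no filter, 17 with DESeq2, 0 with only the compared groups, with and without the replicate block, 0 without the libraries that stand apart, and 0 to 8 with a library left out. ITGB4 kept its direction and stayed uncalled in all 14 alternatives. The sign of uncalled values near 0 turned for the gene ITGA6 (0.00558 with no filter, 0.19 without the libraries that stand apart, −0.22 to 0.18 with a library left out), the gene TOP2A (−0.0335 to 0.31 with a library left out, below 0 without Parental replicate 1 or Top 10 replicate 3) and the gene MCM4 (−0.75 to 0.15, above 0 without Parental replicate 3 or Top 10 replicate 2). The causes were not tested. At 3 libraries a group, most 2-fold changes were missed in simulation.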
